A study of Mus musculus with 11 samples.

Results

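Mup3, Mup20 and Mup21 are genes of the major urinary protein family of the mouse, and their footprints were followed across all libraries of a liver ribosome profiling series. The 3 genes were taken by Ensembl identifier (ENSMUSG00000066154 for Mup3, ENSMUSG00000078672 for Mup20 and ENSMUSG00000066153 for Mup21) as the more distinct members of a family of near-identical copies. All 3 were among the 22019 genes of the deposited table, and all 3 passed the filter on low counts in every comparison. The pairing of these identifiers with symbols came with the rule that chose them. The table itself holds identifiers only, and which other identifiers belong to the family was not analysed here.

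Major urinary proteins are small secreted lipocalins, barrel-shaped proteins that carry volatile pheromones in a central pocket. In male mice the liver makes them in large amounts under the control of pulsed growth hormone, with androgens and glucocorticoids also known to raise their expression. They pass from the blood into the urine, where they release their ligands slowly. Mup20 encodes darcin, a male pheromone that attracts females and promotes the learning of scent location. Because the coding sequences of the family are so alike, short footprints can fit more than 1 copy.

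The livers came from male wild-type mice on a high-fat, high-sugar (HFHS) diet or on chow, with no further treatment in either group, and no age was given in the sources used here. Monosome footprints, fragments of about 30 nt that a single ribosome shields from nuclease, report the occupancy of a coding sequence by ribosomes. Disome footprints, fragments of about 60 nt shielded by a ribosome and the one stacked behind it, report queueing or collision. The libraries comprised 2 HFHS disome, 3 chow disome, 3 HFHS monosome and 3 chow monosome libraries, each referred to by its sample barcode. The samples used here include no HFHS disome replicate 2.

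Total counts ran from 235748 to 238837 in HFHS disomes, from 147212 to 279331 in chow disomes, from 1196240 to 1612324 in HFHS monosomes and from 795145 to 1248781 in chow monosomes. The chow libraries of barcode AGCTA stood apart from the rest of their groups. Over 2156 genes with a mean CPM (counts scaled to a common library total) above 50, log2(CPM + 1) in the monosome library AGCTA correlated with the other chow libraries at r = 0.82 and 0.83, which reached r = 0.98 with each other. The disome library AGCTA gave r = 0.79 with both others, which reached r = 0.96 with each other. The liver label was not checked against marker genes, since the identifiers carry no names. In these bulk samples fewer cells of a type and less RNA per cell cannot be told apart, and without mRNA libraries a change of mRNA level cannot be told from a change of ribosomes per mRNA.

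The RefSeq annotation (GRCm38.p6) lists 22 protein-coding Mup genes on chromosome 4. Mup20, Mup3 and Mup21 stand in that order as the last 3 of the row, so the genes are next to each other within the family. RefSeq upstream sequences were held for Mup3 and Mup21 among the members and for 14 Mup genes in all. They are shown because they let the closeness of the copies upstream of the gene be seen in letters. Footprints come from coding sequences, whose identity was not computed here, so these windows do not measure how far reads can be shared. Each window is the 250 bases before the RefSeq gene start, 5′ to 3′ on the gene's own minus strand, at chr4:62087318-62087567 for Mup3 and chr4:62150842-62151091 for Mup21. Capitals mark the TATATAA run, which resembles a TATA box and begins 11 bases before the gene start in Mup3 and 8 bases before it in Mup21.
Mup3: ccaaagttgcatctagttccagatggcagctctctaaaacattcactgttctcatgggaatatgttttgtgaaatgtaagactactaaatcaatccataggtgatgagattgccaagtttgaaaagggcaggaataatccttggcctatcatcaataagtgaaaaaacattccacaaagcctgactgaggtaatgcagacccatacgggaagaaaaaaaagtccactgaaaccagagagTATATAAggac
Mup21: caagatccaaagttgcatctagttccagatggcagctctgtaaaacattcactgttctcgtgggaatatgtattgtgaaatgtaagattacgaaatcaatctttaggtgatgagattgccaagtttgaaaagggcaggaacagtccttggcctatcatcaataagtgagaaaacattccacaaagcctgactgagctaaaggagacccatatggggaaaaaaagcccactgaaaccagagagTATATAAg

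In a global alignment 229 of 244 aligned bases (93.9%) were identical between these upstream windows. Mup3 was 80.6% to 88.6% identical to the 12 other Mup windows held (median 83.0%), and Mup21 was 79.7% to 86.9% identical to them (median 82.0%). Those 12 windows shared 83.1% to 100% of aligned bases with each other (median 96.6%), so the ranges overlap. Bases left unaligned do not count in these percentages. Of all 250 bases the 12 windows shared 44.4% to 98.8% with each other (median 81.8%). Mup3 shared 57.2% to 81.6% of 250 bases with them, and Mup21 58.0% to 76.8%. Neither Mup3 nor Mup21 had a closer window than the other among those held. The run TATATAA, searched on both strands, occurred in 11 of the 14 Mup windows and in 3.04% of all 32851 upstream windows of this length. The letters TTCNNNGAA, the core to which STAT5 of the growth hormone pathway is known to bind, occurred in 0 of the 14 Mup windows and in 7.02% of all windows, also on both strands. These matches describe the letters of the windows only. Windows so alike are not independent of each other, and 0 of 14 is not far from a share of 7.02%. Sequence outside the windows was not searched.

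Levels are first given as CPM of each library's total count. For Mup3, disome levels were 7822 (CTAGA) and 9617 (GCATA) CPM in HFHS and 9938 (AGCTA), 8249 (ATCGT) and 9619 (CGTAA) CPM in chow. Its monosome levels were 3247 (CTAGA), 3072 (GATCA) and 3733 (GCATA) CPM in HFHS and 3364 (AGCTA), 3476 (ATCGT) and 3504 (CGTAA) CPM in chow. Every disome library thus lay above every monosome library, while within each footprint class the diets overlapped. Mup3 was almost level across the chow monosome libraries, where its coefficient of variation (CV, SD over mean) was 2.15%, close to the 1.71% that counting alone gives. Of 2133 genes with a mean of at least 50 CPM in that group, 2.25% had a smaller CV.

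Mup20, which encodes darcin, had a larger CV than Mup3 in the monosome libraries of both diets and in HFHS disomes, and about the same CV in chow disomes (9.63% for Mup20 and 9.68% for Mup3). Its disome levels were 6494 (CTAGA) and 10158 (GCATA) CPM in HFHS and 7044 (AGCTA), 8481 (ATCGT) and 8202 (CGTAA) CPM in chow. Its monosome levels were 4312 (CTAGA), 3584 (GATCA) and 6265 (GCATA) CPM in HFHS and 4160 (AGCTA), 4770 (ATCGT) and 3688 (CGTAA) CPM in chow. The library GCATA was the highest of its group in both footprint classes. Across the 3 HFHS monosome libraries the highest Mup20 level was 1.75 times the lowest, a CV of 29.4%, against a CV of 12.9% in chow. Counting alone gives 1.27% in HFHS and 1.55% in chow. In the HFHS group 95.3% of 2069 genes of at least 50 CPM had a smaller CV than Mup20, and in the chow group 56.9% of genes did. Whether the spread itself differed between diets was not tested.

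Mup21 had far fewer footprints. Its disome counts were 73 (CTAGA) and 99 (GCATA) in HFHS and 51 (AGCTA), 44 (ATCGT) and 87 (CGTAA) in chow, or 310 and 415 CPM in HFHS and 346, 180 and 311 CPM in chow. Its monosome counts were 271 (CTAGA), 247 (GATCA) and 481 (GCATA) in HFHS and 177 (AGCTA), 201 (ATCGT) and 174 (CGTAA) in chow, or 196, 206 and 298 CPM in HFHS and 223, 161 and 170 CPM in chow. GCATA was again the highest HFHS library in both classes, and the diets overlapped in both. The chow disome library ATCGT, with 180 CPM (exact 95% binomial interval 130 to 241), lay within the range of the monosome libraries. Such intervals cover counting error only.

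**Figure D1:**
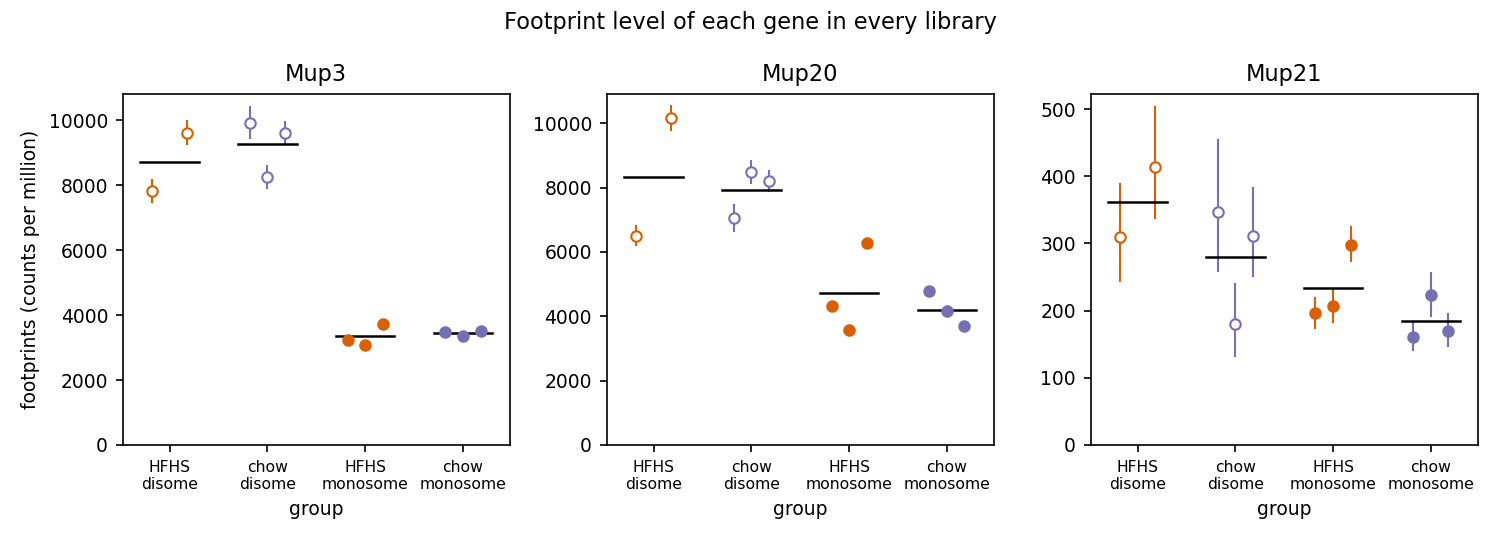
Footprints of Mup3, Mup20 and Mup21 in CPM of the library total (vertical axis) for each library, grouped as HFHS disome, chow disome, HFHS monosome and chow monosome. Points are libraries with exact 95% binomial intervals for counting error, open for disomes and filled for monosomes, and black lines are group means. For Mup3 the lowest disome library stands at 7822 CPM and the highest monosome library at 3733 CPM, whereas diets overlap in every panel.

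Summed over the 3 genes, the share of counts was 1.74% ± 0.39 in HFHS disomes (SD, n = 2), 1.75% ± 0.062 in chow disomes (n = 3), 0.830% ± 0.18 in HFHS monosomes (n = 3) and 0.784% ± 0.053 in chow monosomes (n = 3). A sum is not changed by how reads were divided among these 3 genes, although it still depends on reads dropped or shared with other copies. Whether the shorter monosome footprints fit more than 1 copy more often than disome footprints was not tested, for the sum or for single genes. By this sum, without TMM scaling, disomes lay above monosomes in both diets: the lowest disome library held 1.46% and the highest monosome library 1.03%. The sum holds the same counts as the single genes, mostly those of Mup3 and Mup20, so it adds no separate evidence. How often sums of other genes separate was not computed. Among single genes after TMM scaling, disomes lay wholly above monosomes for 26.7% in HFHS and 25.9% in chow.

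The first comparison asked whether the diet changed monosome footprints, the measure of ribosome occupancy. In edgeR's quasi-likelihood fit over 6754 genes, 0 of the 3 members passed an adjusted p of 0.05, against 4.65% of all genes tested. The diets overlapped for all 3 members, whereas for 21.6% of all genes tested they did not. Mup3 averaged 3456 ± 363 CPM in HFHS and 3468 ± 73.5 CPM in chow after TMM scaling (SD, n = 3 each). Its log2 fold change was -0.0049 ± 0.099 (SE), with a 95% interval of -0.21 to 0.20 (adjusted p = 0.991 in edgeR), so that the interval ran from 0.867-fold to 1.15-fold. Of the 3 genes it had the narrowest interval around no change.

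Mup20 averaged 4870 ± 1444 CPM in HFHS monosomes and 4240 ± 642 CPM in chow monosomes. The log2 fold change was 0.20 ± 0.24, with a 95% interval of -0.40 to 0.80 (edgeR adjusted p = 0.768). This interval is wide, from 0.759-fold to 1.74-fold, and 1 library set the direction: without GCATA the log2 fold change was -0.05. Mup21 averaged 241 ± 58.6 CPM in HFHS monosomes and 186 ± 36.4 CPM in chow monosomes, with a log2 fold change of 0.38 ± 0.17 and a 95% interval of 0.03 to 0.74. Its unadjusted p was 0.0339 and its adjusted p 0.245 in edgeR, so it missed the threshold over all genes. The interval is one for a single gene, without adjustment for the number tested. Without GCATA the log2 fold change of Mup21 was 0.17, and without the chow library AGCTA it was 0.55, neither past the threshold.

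The same question was put to disome footprints, with 2804 genes tested. Here too 0 of the 3 members passed the threshold, against 2.96% of all genes, and the diets overlapped for all 3, whereas for 28.2% of all genes they did not. Mup3 averaged 9608 ± 1482 CPM in HFHS (n = 2) and 10292 ± 1107 CPM in chow (n = 3), with a log2 fold change of -0.10 ± 0.16 and a 95% interval of -0.40 to 0.21 (edgeR adjusted p = 0.860). Mup20 averaged 9181 ± 2933 CPM in HFHS and 8767 ± 688 CPM in chow, with a log2 fold change of 0.07 ± 0.16 and an interval of -0.24 to 0.37 (edgeR adjusted p = 0.917). The direction for Mup20 depended on which HFHS library was kept, at 0.37 without CTAGA and -0.30 without GCATA. The latter value lies below the interval. The fit shares spread among genes and gave Mup20 nearly the SE of Mup3, although the HFHS libraries differed more for Mup20. The interval of Mup20 may therefore be too narrow. Mup21 averaged 399 ± 85.1 CPM in HFHS and 310 ± 101 CPM in chow, with a log2 fold change of 0.40 ± 0.21 and an interval of -0.02 to 0.81 (edgeR adjusted p = 0.403). It was 0.15 without the HFHS library GCATA and 0.15 without the chow library ATCGT. The HFHS libraries of barcodes CTAGA and GCATA occur in both footprint classes, so the similar estimates of Mup21 in monosomes and disomes are not taken as independent.

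Disomes were next set against monosomes within each diet, which asked whether a gene carried more or fewer queued ribosomes for its occupancy than the average gene. In HFHS livers, Mup3 was the 1 member of 3 that passed the threshold as higher in disomes, against 11.5% of 7437 genes tested. Its disomes averaged 8418 ± 1414 CPM (n = 2), against 3504 ± 373 CPM for its monosomes (n = 3). The log2 ratio was 1.26 ± 0.13, or 2.40-fold (95% interval 2.01 to 2.87-fold, edgeR adjusted p = 6.28e-09). This ratio exceeded that of 91.8% of genes tested. After TMM scaling Mup3 was also the only 1 of the 3 whose disome libraries all lay above its monosome libraries, against 26.7% of genes tested.

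For Mup20 in HFHS disomes averaged 8053 ± 2678 CPM, against 4939 ± 1472 CPM for monosomes. The log2 ratio was 0.70 ± 0.35 with a 95% interval of -0.24 to 1.65 (edgeR adjusted p = 0.237). The classes overlapped after TMM scaling, with 6160 CPM in the lower disome library and 6577 CPM in the highest monosome library. In plain CPM they did not, at 6494 CPM in disomes and 6265 CPM in monosomes. The filter on low counts and TMM together lowered disome-to-monosome ratios in HFHS, that of Mup3 by 0.12 on the log2 scale. Mup21 averaged 350 ± 79.4 CPM in HFHS disomes and 244 ± 59.8 CPM in HFHS monosomes. Its log2 ratio was 0.51 ± 0.20 (edgeR adjusted p = 0.0614). It too overlapped after TMM, at 294 CPM in the lower disome library and 313 CPM in the highest monosome library, and not in plain CPM, at 310 and 298 CPM.

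With the sample barcode as a block, which compares footprint classes within a barcode, both genes passed. Mup20 then had a log2 ratio of 0.52 (edgeR adjusted p = 1.63e-07) and Mup21 one of 0.44 (edgeR adjusted p = 0.0132). Only the barcodes CTAGA and GCATA hold both classes in HFHS, so these p-values rest on few pairs and lean on spread shared across genes. Over all alternatives tried, the adjusted p ran from 1.63e-07 to 0.633 for Mup20 and from 0.00689 to 0.590 for Mup21. Whether a barcode marks the same liver in both classes is not stated in the labels. Both genes also passed without the HFHS monosome library GCATA, at log2 ratios of 1.00 for Mup20 (edgeR adjusted p = 0.00319) and 0.77 for Mup21 (edgeR adjusted p = 0.00689). Without the disome library GCATA the ratios were 0.30 for Mup20 and 0.24 for Mup21. That fit leaves 1 disome library, assumed to vary like the monosome libraries, and neither gene passed in it.

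In chow livers, 3 of the 3 members were higher in disomes, against 21.6% of 4713 genes tested. After TMM scaling the disome libraries of Mup3 and Mup20, 2 of the 3, all lay above their monosome libraries, against 25.9% of genes tested. Mup3 disomes averaged 9532 ± 925 CPM, against 3770 ± 38.7 CPM for monosomes (n = 3 each). The log2 ratio was 1.34 ± 0.11, or 2.53-fold (95% interval 2.16 to 2.96-fold, edgeR adjusted p = 2.65e-12). The ratio exceeded that of 93.7% of genes tested. Mup20 disomes averaged 8130 ± 722 CPM, against 4605 ± 649 CPM for monosomes, and the log2 ratio was 0.82 ± 0.12, or 1.77-fold (interval 1.50 to 2.08-fold, edgeR adjusted p = 3.74e-07). It exceeded that of 82.6% of genes. With all 11 libraries in a single fit, which shares the spread of the HFHS libraries, Mup20 narrowly missed the threshold (log2 ratio 0.75, edgeR adjusted p = 0.0603, the highest of the alternatives, which began at 4.58e-23).

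Mup21 disomes in chow averaged 287 ± 90.5 CPM, against 202 ± 40.2 CPM for monosomes, and the log2 ratio was 0.48 ± 0.19, or 1.40-fold (interval 1.07 to 1.83-fold, edgeR adjusted p = 0.0392). The classes overlapped, and the call rested on single libraries. It was lost without the disome library AGCTA (log2 ratio 0.29), without the disome library CGTAA (0.39), without the monosome library ATCGT (0.37) and without the monosome library CGTAA (0.39), with an edgeR adjusted p of 0.170 to 0.257. It was also lost without both AGCTA libraries (log2 ratio 0.43, edgeR adjusted p = 0.135). Without both AGCTA libraries Mup20 kept its call in chow, with a log2 ratio of 0.83 (edgeR adjusted p = 5.66e-05). Disome and monosome columns carry different name prefixes, and the labels name no batch. Any other difference that goes with these prefixes cannot be told apart from one between footprint classes.

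**Figure D2:**
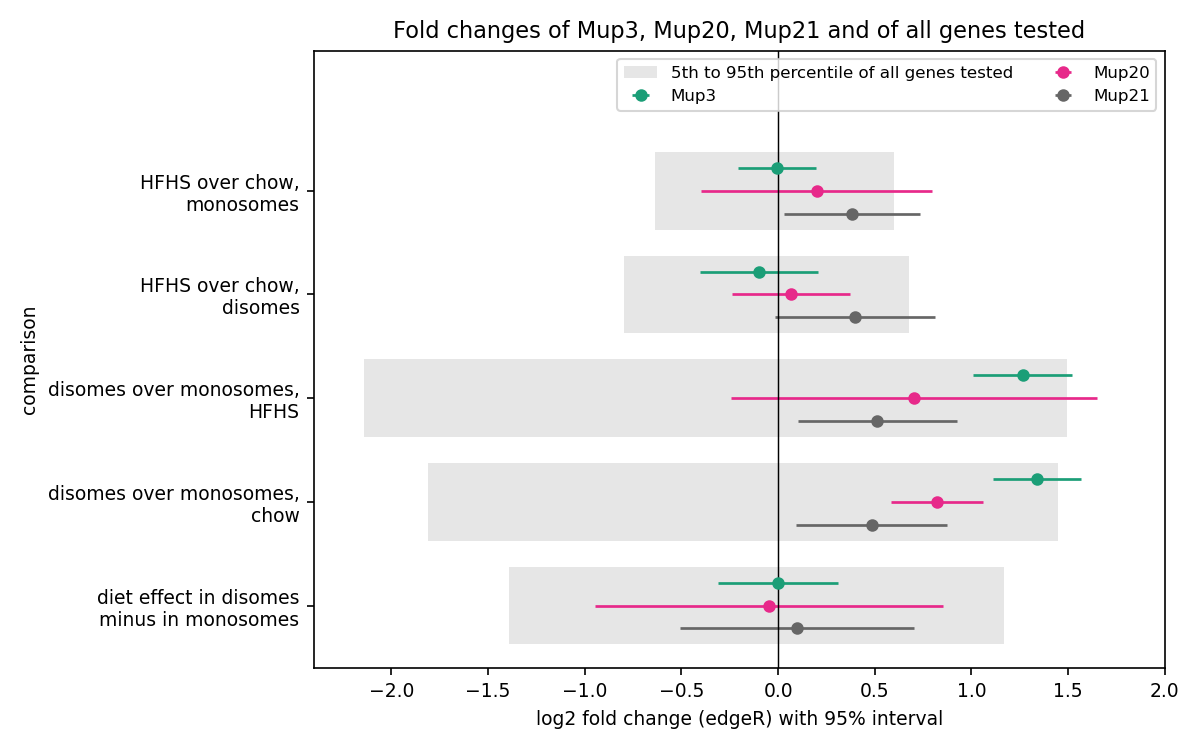
Log2 fold changes from edgeR (horizontal axis) of Mup3, Mup20 and Mup21 in the 5 comparisons (vertical axis), with 95% intervals as lines. Grey bars span the 5th to the 95th percentile of all genes tested in the same comparison. The diet effects lie inside the grey bars, and the disome-to-monosome ratio of Mup3, at 1.26 in HFHS and 1.34 in chow, lies near their upper end.

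The last comparison tested whether the diet effect in disomes differed from that in monosomes. Over all 11 libraries and 7236 genes, 0 of the 3 members passed in edgeR, against 0% of all genes, of which 358 had an unadjusted p under 0.05. DESeq2 called 0 genes as well. The difference of log2 diet effects was -0.00051 ± 0.15 for Mup3, with a 95% interval of -0.31 to 0.31. For Mup20 it was -0.05 ± 0.38, with an interval of -0.95 to 0.86. For Mup21 it was 0.10 ± 0.30, with an interval of -0.51 to 0.70, and the edgeR adjusted p was 1.00 for each gene. A diet effect on the disome ratio within these intervals could not be seen at this depth and group size.

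Libraries of the same barcode let the disome-to-monosome ratio be read for each barcode, in plain CPM. For Mup3 the ratio was 2.41 (CTAGA) and 2.58 (GCATA) in HFHS and 2.95 (AGCTA), 2.37 (ATCGT) and 2.75 (CGTAA) in chow. For Mup20 it was 1.51 and 1.62 in HFHS and 1.69, 1.78 and 2.22 in chow, in the same order of barcodes. For Mup21 it was 1.58 and 1.39 in HFHS and 1.56, 1.12 and 1.84 in chow. Mup3 had the highest ratio of the 3 genes at every barcode, and no ratio lay below 1. The lowest, 1.12 for Mup21 at ATCGT, rests on 44 disome counts. Its counting intervals overlapped, at 130 to 241 CPM in disomes and 139 to 185 CPM in monosomes. For Mup20 the level in GCATA was 1.56 times that in CTAGA in disomes and 1.45 times in monosomes, so that the 2 HFHS ratios lay close together.

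Ratios between members within a library need no scaling between libraries. Mup20 counts over Mup3 counts were 0.830 (CTAGA) and 1.06 (GCATA) in HFHS disomes and 0.709 (AGCTA), 1.03 (ATCGT) and 0.853 (CGTAA) in chow disomes. They were 1.33 (CTAGA), 1.17 (GATCA) and 1.68 (GCATA) in HFHS monosomes and 1.24 (AGCTA), 1.37 (ATCGT) and 1.05 (CGTAA) in chow monosomes. Within each diet the classes did not overlap. How often this holds for other pairs of genes was not computed. The ratio was lower in disomes at 5 of 5 shared barcodes, which restates the higher disome-to-monosome ratio of Mup3 at each barcode. For the same reason Mup21 over Mup3 was lower in disomes at 5 of 5 barcodes. It ran from 0.0218 to 0.0431 over the disome libraries and from 0.0463 to 0.0799 over the monosome libraries. Mup21 over Mup20 was lower in disomes at 4 of 5 barcodes, and its ranges overlapped, at 0.0212 to 0.0492 in disomes and 0.0337 to 0.0576 in monosomes. These ratios were not tested. They compare libraries only: lengths of the coding sequences were not used here, so the counts of a gene are not set against those of another as levels.

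**Figure D3:**
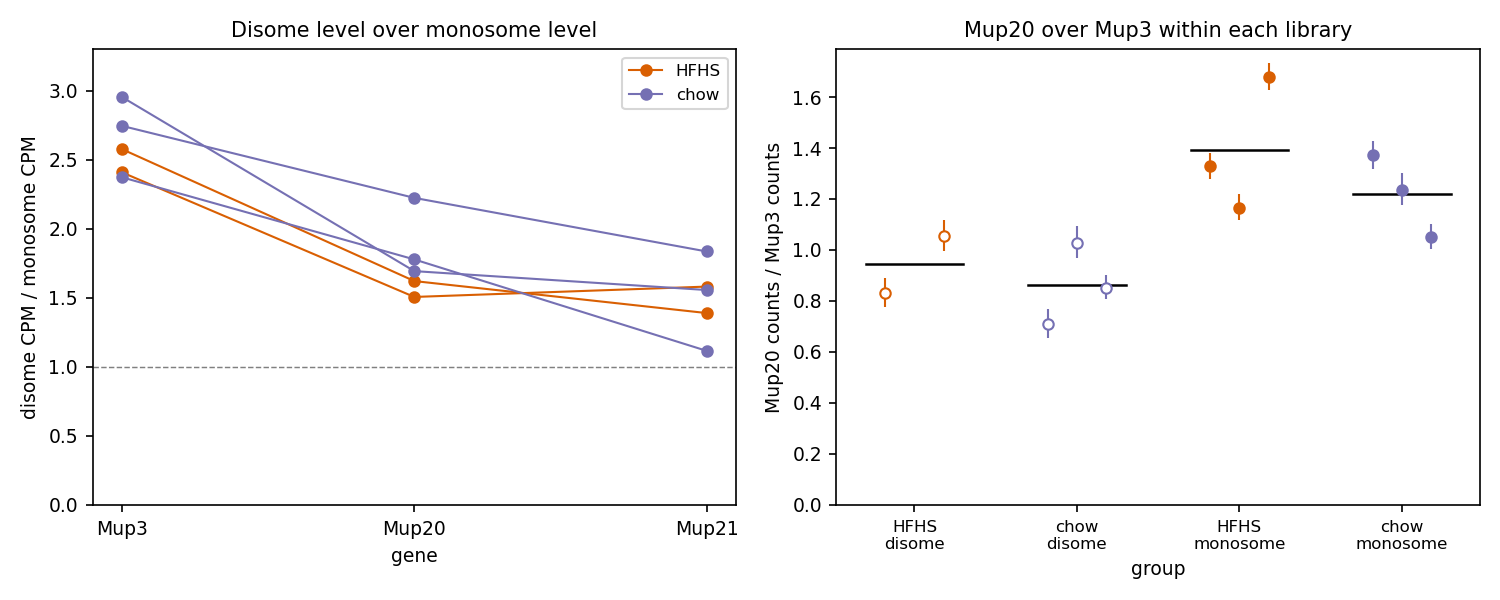
Left, plain CPM in disomes over plain CPM in monosomes (vertical axis) for Mup3, Mup20 and Mup21, with a line for each of the 5 shared barcodes coloured by diet and a dashed line at equal levels. Right, Mup20 counts over Mup3 counts in each library with exact 95% binomial intervals for counting error and group means as black lines. Mup3 ratios lie between 2.37 and 2.95, above those of the other genes, and the right panel shows lower values in disomes than in monosomes within each diet.

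The genes most like each member across libraries were sought by Pearson r of log2(CPM + 2) over the 6 monosome libraries among 2116 other genes of at least 50 CPM, as a description with no test. ENSMUSG00000002812 was the closest to Mup3 (r = 0.98), but over the 5 disome libraries the r of this pair was -0.12. ENSMUSG00000016756 was the closest to Mup21 (r = 0.99), with r = -0.84 over the disome libraries. The 3 genes closest to Mup20 had r from 0.940 to 0.947 in monosomes and from 0.457 to 0.592 in disomes. In monosomes 9 genes passed r = 0.9 for Mup3, 12 for Mup20 and 20 for Mup21. All points share the same few libraries and their depths. Of the 9 genes taken for the 3 members, 8 had a disome value, and r in disomes ran from -0.84 to 0.80.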

How the data were processed

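The authors deposited raw counts of footprints on coding sequences, as whole numbers that were not normalized, in a single table. Cutadapt 3.5 and Bowtie2 are listed in the submitters' processing notes. Per the labels' protocols, adaptors carried a sample barcode and an 8 nt molecular identifier. The sources used here do not give the genome build, annotation, strand, use of the molecular identifiers or treatment of reads shared between copies. A read that fits several Mup genes may have been split, assigned to 1 or dropped, so each member's level is uncertain in that respect. Column names give footprint class, diet and barcode but no replicate number.

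The whole table was fitted in R 4.3.3 with edgeR 4.0.16 (TMM scaling, and a filterByExpr minimum count of 10). Two-sided quasi-likelihood tests with robust estimation were adjusted by Benjamini-Hochberg over every gene that passed the filter, with a threshold of 0.05. The SE is the size of the log2 fold change over the square root of F, and the 95% interval uses the fit's degrees of freedom. Alternatives included DESeq2 1.42.0, other filters and normalizations, and leaving out each library. The labels do not say that samples are separate animals, so a p-value reflects only spread among these libraries, which may be technical. For each gene the fit also draws on the spread of the other genes tested. In a single library 3 counts correspond to 1.86 to 20.4 CPM, far below every member's level.

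The members and lists were chosen with earlier results of these data known. The rule for named genes took the members and, for each, the 3 genes most alike over the monosome libraries, with at most 2 identifiers printed. Lists of other Mup, growth hormone, sex-biased, lipocalin and cell type genes could not be applied: 0 identifiers matched the 49997 genes of RefSeq's table (GRCm38.p6).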

Additional observations from a re-analysis of the deposited data

How the results depend on the processing

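No paired analysis was possible because the columns carry no replicate number by which to pair samples. That limit holds for pairing by replicate number only. Disomes and monosomes were instead paired by shared barcode, with the barcode as a block, as an alternative. The main fits did not use the barcode, so their calls in HFHS differ from those with the block for Mup20 and Mup21. Of 216 values of the members under the alternatives, 174 kept their direction and their side of the threshold. Mup3 stayed past it in disomes over monosomes in both diets under every alternative run. With DESeq2, no filter, a minimum count of 50 and all 11 libraries in 1 fit, the chow log2 ratio of Mup21 missed the threshold, at 0.48, 0.31, 0.43 and 0.41, as did that of Mup20 in the single fit at 0.75 and that of Mup21 without both AGCTA libraries at 0.43. In HFHS Mup20 passed with no filter (0.57), a minimum count of 50 (0.71), no robust estimation (0.70) and the barcode block (0.52). There Mup21 passed with upper-quartile normalization (0.58), with library sizes that left out the 10 most abundant genes and the members (0.53) and with the barcode block (0.44). The causes were not tested. Values near 0 changed sign: the monosome diet effect of Mup3 was 0.013 with no filter and 0.016 with upper-quartile normalization, the difference of diet effects was -0.00043 for Mup21 with upper-quartile normalization and 0.063 for Mup3 without both AGCTA libraries.

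Leaving out each library gave log2 ranges for the monosome diet effect of -0.086 to 0.061 (Mup3), -0.053 to 0.37 (Mup20) and 0.17 to 0.55 (Mup21), and for the disome diet effect of -0.26 to 0.064, -0.30 to 0.37 and 0.15 to 0.60 in that order. For disomes over monosomes the ranges were 1.06 to 1.40, 0.30 to 1.00 and 0.24 to 0.77 in HFHS and 1.23 to 1.34, 0.68 to 0.88 and 0.29 to 0.67 in chow. For the difference of diet effects they were -0.20 to 0.15, -0.45 to 0.24 and -0.18 to 0.30. In fits without an HFHS disome library (the diet effect in disomes, disomes over monosomes in HFHS, and the difference of diet effects), the lone HFHS disome library left is assumed to vary like the other groups.

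Of 144 numbers of genes called under the alternatives, 28 moved by over 1.5 times. For the diet in monosomes, 204 were higher and 110 lower, against 56 lower with DESeq2, 125 higher with a minimum count of 50, and 85 to 203 higher and 57 to 117 lower without single libraries. For the diet in disomes, 51 were higher and 32 lower. DESeq2 called 16 and 10, the number lower was 21 with no filter, 21 with the library sizes above and 21 in the single fit, and single libraries left 20 to 32 higher and 18 to 26 lower. For disomes over monosomes in HFHS, 854 were higher and 1010 lower, against 611 lower with DESeq2 and 425 to 825 higher and 555 to 861 lower without single libraries. In chow, 1017 were higher and 1097 lower, against 412 and 486 with a minimum count of 50 and 717 to 998 higher and 818 to 1169 lower without single libraries. For the difference of diet effects 0 were called, 0 without any single library, and 7 lower with the barcode block, none of them a member. Mup21 had the fewest counts of the members, with 44 to 99 in a disome library. Its CV was 20.5% in HFHS disomes, where counting alone gives 10.9%, and 31.5% in chow disomes, where counting alone gives 13.3%. How far depth limits its results was not tested.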
